A study of Mus musculus with 2 samples.

Results

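Complement genes were followed in 2 single-cell RNA libraries of tumor mononuclear phagocytes (TMPs), through 8 of the 27998 genes listed in them, chosen by gene symbol. They are the chains of C1q (C1qa, C1qb and C1qc), the components C3, Cfb and Cfp, and the anaphylatoxin receptors C3ar1 and C5ar1. TMPs bearing MerTk and CD64 were sorted by FACS from tumors of B16, a mouse melanoma line, grown in C57Bl/6 mice, and 1 library was made from Fcmr+/+ and 1 from Fcmr-/- mice. The genotype concerns Fcmr (Toso), a putative receptor for soluble IgM, and the sources used here do not give the age of the mice or how many were pooled. The comparison asks how loss of Fcmr goes with the expression of complement genes in these cells.

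Complement is a cascade of proteins that tags and lyses targets and calls in leukocytes. In the classical pathway C1q binds antibody complexes, dying cells or other surfaces and sets off the cleavage of C3, and in the alternative pathway factor B (Cfb) joins cleaved C3 to form a convertase that properdin (Cfp) stabilizes. The small fragments C3a and C5a are sensed by the receptors encoded by C3ar1 and C5ar1. Most plasma complement is made in the liver, but C1q is made largely by macrophages and related myeloid cells, and its chains are widely used as markers of tissue macrophages.

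After filtering, the Fcmr+/+ library held 6352 cells with 128408544 unique molecular identifiers (UMIs) and the Fcmr-/- library 7999 cells with 124630621. Median depth was 17974 UMIs per Fcmr+/+ cell and 12911 per Fcmr-/- cell, and the libraries shared 73 barcodes. A list of 10 sort and macrophage markers reached at least 5 UMIs in 6351 of 6352 and 7993 of 7999 cells. Fcmr itself had 7 and 6 UMIs, so the genotype labels could not be checked from its transcripts. In the Fcmr-/- library a summed list of type I interferon genes was higher (1545 against 985 CPM). A list built on Mrc1, Cd163 and Folr2 was lower there (7121 against 8604 CPM). With the Fcmr-/- library also went more type II interferon genes (835 against 209.5 CPM for the summed list), more MHC class II genes (7126 against 4919 CPM), more T and NK cell genes (17.1 against 2.30 CPM, with 9 and 8 of 9 listed genes at 1 UMI or more) and more Ifng (41 UMIs against 1). The part of these in the results below was not tested. Values given below without cells that held T, NK, B cell or melanoma UMIs leave out those cells only. They cannot show the part of interferon or MHC class II programs in the cells that remain.

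Of the 8 members, C3 and Cfb stood at least 1.5-fold higher in the Fcmr-/- library and no member stood 1.5-fold lower. Levels are UMIs of a gene per 1000000 UMIs of the library (CPM), with exact Poisson 95% intervals that cover counting error only, and folds were taken after adding 1 CPM. With 1 library per genotype there is no spread between mice, and no test between genotypes was made. Across all 8701 genes with at least 5 CPM in either library, 4.09% were 1.5-fold apart, 2.4% in the direction of higher in Fcmr-/-. Among genes reaching 5 to 50 CPM, where C3 and Cfb lie, 2.19% were 1.5-fold higher in Fcmr-/-. Cfb passed the 5 CPM limit through the Fcmr-/- library alone, where it was high. The median log2 ratio of all 8701 genes was 0.0023.

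**Figure D1:**
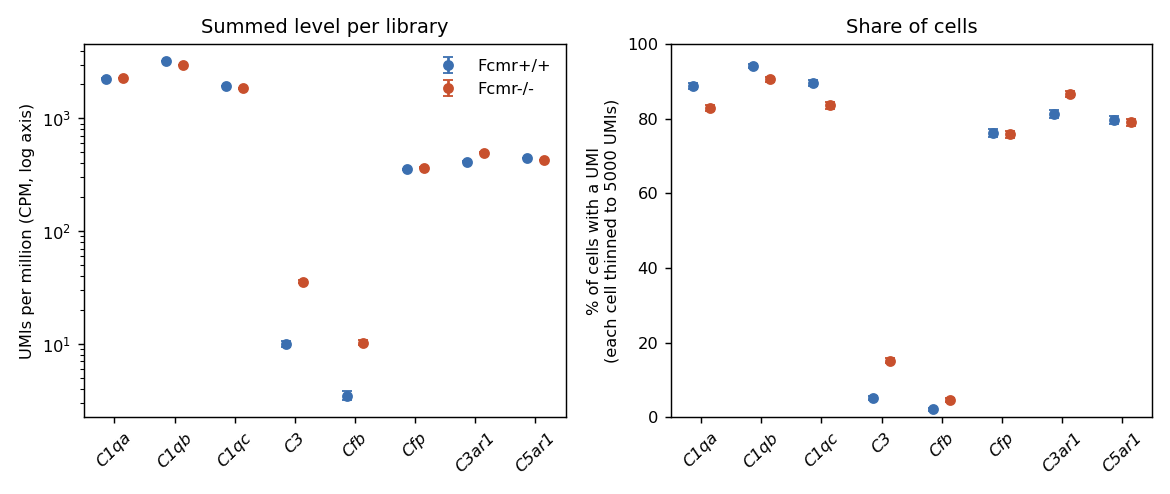
The left panel plots the summed level of each member in CPM on a log axis, and the right panel the percentage of cells with at least 1 UMI after each cell was thinned to 5000 UMIs, for the Fcmr+/+ (blue) and Fcmr-/- (orange) library. Bars are exact 95% intervals for counting error; C3 and Cfb are the members whose levels are at least 1.5-fold apart, at 9.95 against 35.7 CPM and 3.46 against 10.2 CPM.

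The C1q chains lie side by side on the minus strand of chromosome 4 of GRCm38, in the order C1qb, C1qc and C1qa, between positions 136880129 and 136898803, a span of 18.7 kb. No counted gene overlaps any of the 3. RefSeq (GRCm38.p6) promoters were at hand for 6 of the 8 members, all but C1qa and Cfb. The 250 bases before the start are shown for C1qb and C1qc, whose transcripts moved together from cell to cell, and for C3, which differed most between the libraries. Capitals mark the motif GAGGAA, a purine-rich box bound by factors of the ETS family, on either strand. C1qb (chr4:136886201-136886450, minus strand), C1qc (chr4:136892915-136893164, minus strand) and C3 (chr17:57228137-57228386, minus strand) read, 5′ to 3′:
C1qb: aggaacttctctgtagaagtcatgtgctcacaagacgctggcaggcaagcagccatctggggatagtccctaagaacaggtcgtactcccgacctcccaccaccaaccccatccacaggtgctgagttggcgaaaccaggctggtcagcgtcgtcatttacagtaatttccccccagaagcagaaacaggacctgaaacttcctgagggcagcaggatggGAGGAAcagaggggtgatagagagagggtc
C1qc: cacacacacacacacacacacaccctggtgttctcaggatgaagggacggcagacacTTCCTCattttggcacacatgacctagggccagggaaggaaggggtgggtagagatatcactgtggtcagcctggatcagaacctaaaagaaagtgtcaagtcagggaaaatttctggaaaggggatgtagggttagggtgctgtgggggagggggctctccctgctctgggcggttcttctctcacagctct
C3: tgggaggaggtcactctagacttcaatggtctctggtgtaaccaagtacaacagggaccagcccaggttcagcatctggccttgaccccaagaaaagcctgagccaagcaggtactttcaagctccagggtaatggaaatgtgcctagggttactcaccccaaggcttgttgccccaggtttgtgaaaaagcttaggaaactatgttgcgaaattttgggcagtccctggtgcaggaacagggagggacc

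The GAGGAA box began 30 bases before the start of C1qb and, on the opposite strand, 193 bases before that of C1qc. It was in 23.3% of the 32851 promoters of this length, and in 2 of the 6 members. The interferon-type motifs TTCNNNGAA (GAS, in 7.02% of promoters) and GAAANNGAA (the ISRE core, in 7.13%) and the MAF-type motif TGCTGAC (in 3.81%) were searched on both strands as well. Of these, C5ar1 held 1 ISRE core, on the opposite strand with its first base 66 before the start. The other members searched, which do not include C1qa and Cfb, held none. A match is only these letters in this window. The start used here is that of RefSeq, while the gene positions in this text are those of GENCODE. By GENCODE the windows of C1qc, C3ar1 and C5ar1 lie in part inside the gene, and so does the C5ar1 match.

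The C1q chains were near equal between the libraries. C1qa stood at 2260.1 CPM (interval 2252 to 2268) in Fcmr+/+ and 2273 (2265 to 2281) in Fcmr-/- cells, a log2 ratio of 0.01. C1qb stood at 3225 (3215 to 3235) and 2992 (2982 to 3002) CPM, a log2 ratio of -0.11. For C1qc, 1946 (1938 to 1953) and 1843 (1836 to 1851) CPM gave a log2 ratio of -0.08. Summed, the chains reached 7431 and 7108 CPM, a log2 ratio of -0.06 with counting bounds of -0.07 and -0.06. The difference is outside counting error and small against the folds of C3 and Cfb. Leaving out states 2 and 9, which were at least 80% Fcmr-/- cells, moved it to -0.27.

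The distribution over cells was wider in the Fcmr-/- library. To compare cells at the same depth, each was thinned at random to 5000 UMIs, and no cell had fewer. The thinned cells held a median of 34 C1q UMIs in Fcmr+/+ (10th percentile 2, 90th percentile 66) and 29 in Fcmr-/- (10th percentile 1, 90th percentile 67). The variance over the mean was 16.0 in Fcmr+/+ and 21.1 in Fcmr-/-. All 3 chains were seen in 83.0% of thinned Fcmr+/+ cells and 74.8% of Fcmr-/- cells, and none of them in 2.33% and 4.21%. By chain, C1qa had a UMI in 88.7% of thinned Fcmr+/+ cells (Clopper-Pearson interval 87.9 to 89.4) and 82.8% of Fcmr-/- cells (82.0 to 83.7), against 94.98% and 89.8% before thinning. C1qb had one in 94.1% and 90.6% of thinned cells and C1qc in 89.6% and 83.5% (before thinning 97.8% and 95.2%, and 94.8% and 89.5%). Cells poor in C1q were thus more frequent in the Fcmr-/- library, while the 90th percentiles differed by 1 UMI. Before thinning, 2516 of 7999 Fcmr-/- cells and 1073 of 6352 Fcmr+/+ cells lay in the shallowest of 4 bins of depth. C1q CPM was lowest in that bin in both libraries. Thinning does not even out this mix, and its part in the share of C1q-poor cells was not tested.

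C3, the central component that both pathways cleave, had 1278 UMIs or 9.95 CPM (interval 9.41 to 10.5) in the Fcmr+/+ library and 4446 UMIs or 35.7 CPM (34.6 to 36.7) in the Fcmr-/- library. The log2 ratio was 1.74 (bounds 1.63 and 1.86), a 3.35-fold difference. The gene (ENSMUSG00000024164) lies on the minus strand of chromosome 17 from 57203970 to 57228136. A C3 UMI was found in 5.09% of thinned Fcmr+/+ cells (interval 4.56 to 5.65) and 15.2% of thinned Fcmr-/- cells (14.4 to 16.0), and in 13.3% and 29.4% before thinning. The 1% of cells with most C3 held 23.2% of its UMIs in Fcmr+/+ and 15.7% in Fcmr-/-, against 4.67% and 5.39% for C1qa. For Cfb, which is also sparse, they were 27.0% and 16.5%. Few UMIs per cell raise this share by themselves, so it does not show that C3 is kept to few cells. When both libraries were weighted to the same mix of states the log2 ratio was 1.04, and without states 2 and 9 it was 1.44.

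Cfb, which encodes factor B of the alternative pathway, had 444 UMIs or 3.46 CPM (interval 3.14 to 3.79) in Fcmr+/+ and 1273 UMIs or 10.2 CPM (9.66 to 10.8) in Fcmr-/- cells. The log2 ratio was 1.33 (bounds 1.15 and 1.51), a 2.52-fold difference. Thinned cells with a Cfb UMI made up 2.16% of the Fcmr+/+ library (interval 1.81 to 2.54) and 4.65% of the Fcmr-/- library (4.20 to 5.14), with 6.11% and 12.98% before thinning. Cfb (ENSMUSG00000090231, chromosome 17, 34856374 to 34862518, minus strand) overlaps the gene model Gm20547 on the same strand, which had 0 UMIs in both libraries, and reads shared by the pair could not be counted for either. Weighted to the same mix of states the log2 ratio was 0.58, just under the limit of 0.585 that stands for 1.5-fold. In that mix the Fcmr+/+ levels of states 2 and 9 rest on 23 and 6 Cfb UMIs. Without states 2 and 9, a setting chosen after seeing the data, the log2 ratio was 0.83.

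Cfp, on chromosome X from 20925454 to 20931555, encodes properdin and was near equal, at 353 CPM (interval 350.2 to 357) in Fcmr+/+ and 366 (363 to 370) in Fcmr-/- cells, a log2 ratio of 0.05. It had a UMI in 76.2% and 75.9% of thinned cells (94.4% and 91.4% before thinning). C5ar1 (chromosome 7, 16246743 to 16259540), the C5a receptor, was at 446 CPM (442 to 449.6) and 428 CPM (424 to 431), a log2 ratio of -0.06, with a UMI in 79.6% and 79.0% of thinned cells (93.7% and 91.5% before). C3ar1 (chromosome 6, 122847138 to 122856161), the C3a receptor, was higher in Fcmr-/- but under the fold limit, at 413 CPM (409.6 to 417) against 496 (492 to 500.02), a log2 ratio of 0.26. A UMI was in 81.3% of thinned Fcmr+/+ cells (80.3 to 82.2) and 86.6% of Fcmr-/- cells (85.9 to 87.4), while the unthinned shares were 96.5% and 96.2%.

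A population without these transcripts, to show the share that free RNA gives, was nearly absent after the sort. Cells with at least 6 UMIs of T and NK cell genes numbered 4 in Fcmr+/+ and 29 in Fcmr-/-, but 3 and 26 of them also held 5 or more macrophage UMIs. In the 29 (median 18731 UMIs) a thinned C3 UMI was in 13.8%, a Cfb UMI in 6.90% and a C1qa UMI in 69.0%, so they give no background level for any member, and the part of free RNA in the shares was not tested. Cells that held a UMI of T and NK cell, B cell or melanoma genes numbered 4537 of 6352 in Fcmr+/+ and 5610 of 7999 in Fcmr-/-. Without them, C3 and Cfb had log2 ratios of 1.71 and 1.13 and were again the 2 members past 1.5-fold. This filter removes most cells, and a deeper cell is likelier to hold such a UMI. The part of depth in these values was not tested.

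Clustering of both libraries together, with complement genes kept out of the clustering, gave 11 states. The members were read out in these states, and a state is named here by its number and leading genes. State 3 (Tfrc, Cnrip1, Gas6) held 6 of 11 genes of a list built on Mrc1, Cd163 and Folr2 among its top 50 genes by fold, and state 9 (Iigp1, Serpina3g, Cxcl9) held 10 of 15 type II interferon genes. Of 12 S phase genes, state 3 also held 3 and state 9 held 4. State 2 (Ly6c2, Ly6a, Slamf8) held 7 type II interferon and 5 of 7 MHC class II genes. State 10 (Rsad2, Ifit1bl1, Cmpk2) held 13 of 15 type I interferon genes, state 4 (Hbb-bs, Inhba, Adm) 8 of 14 hypoxia and glycolysis genes, and state 7 (Mfge8, Plpp3, Ctsk) 8 of 11 lipid-associated genes. State 5 (Cxcl3, Ppbp, Ccl24) held 6 of 12 inflammatory and 5 of 12 monocyte genes, and states 4 and 10 also held 3 inflammatory genes each. State 6 (Cenpf, Nusap1, Pbk) held 11 of 11 G2 and mitosis genes, and state 1 (Ccl17, Il1r2, Ifitm1) 6 of 12 monocyte and 6 of 7 MHC class II genes. State 8 was led by Acp5, Apoe and Cyp4f18. State 11 was led by Adm, Cdk18 and Pdgfa and held 4 of 14 hypoxia and glycolysis genes. States 2 and 9 were 95.8% and 95.7% Fcmr-/- cells, with 68 and 41 Fcmr+/+ cells, and either may be that library rather than a type.

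The same states stood at the ends of the C1q order in both libraries. The summed chains were lowest in state 4, at 3063 CPM in Fcmr+/+ and 2825 CPM in Fcmr-/- cells, and highest in state 9, at 11584 and 11262 CPM. That is 3.78-fold in Fcmr+/+ and 3.99-fold in Fcmr-/-. State 10, with the type I interferon genes, was also low at 4028 and 3918 CPM, whereas state 3 reached 9901 and 9473 CPM, the next after state 9. State 2, which also held type II interferon genes, lay between them at 6902 and 6947 CPM. State 11, which like state 4 held hypoxia and glycolysis genes, was not as low, at 6678 and 6061 CPM. Depth went with this order in part, since the median was 9057 UMIs per cell in state 4 and 8648 in state 10 against 19657 in state 9 and 21829 in state 3, but state 6 was deepest at 26351 with an intermediate 8470.0 and 8811 CPM, and state 8 had 8793 and 8830.0 CPM at 11427 UMIs.

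**Figure D2:**
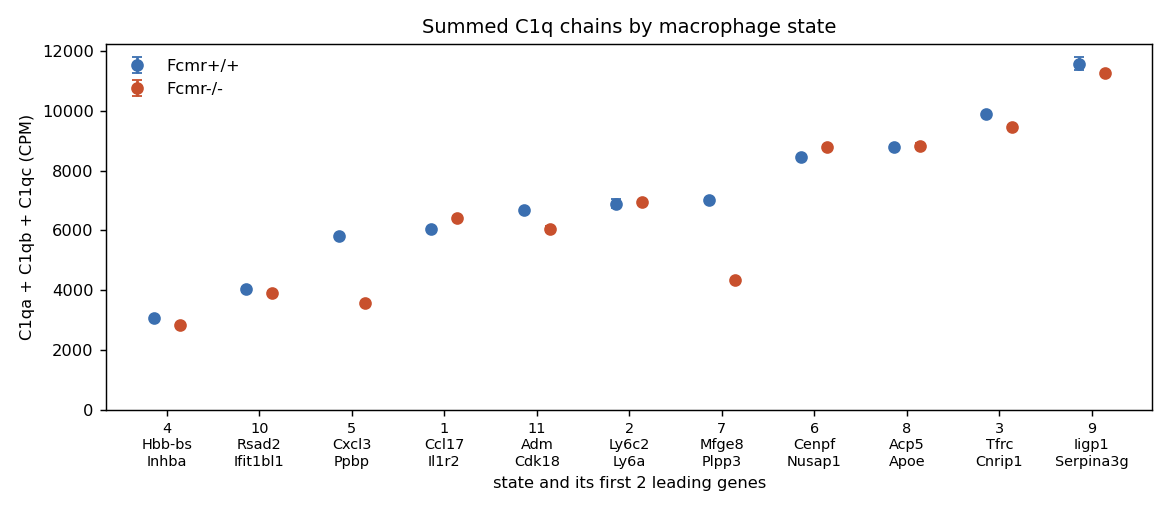
Summed CPM of C1qa, C1qb and C1qc in each of the 11 states, ordered by the Fcmr+/+ value and named with their first 2 leading genes, for Fcmr+/+ (blue) and Fcmr-/- (orange) cells with exact Poisson 95% intervals, most of them smaller than the point. The libraries lie close in 9 states and apart in states 5 (5808 against 3574 CPM) and 7 (7010.1 against 4347 CPM).

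Within states the near equality held in 9 of 11 and was lost in states 5 and 7. In state 5 the summed chains stood at 5808 CPM (interval 5769 to 5847) in 795 Fcmr+/+ cells and 3574 CPM (3537 to 3611) in 751 Fcmr-/- cells, a log2 ratio of -0.70. In state 7 they stood at 7010.1 CPM (6941 to 7080) in 279 and 4347 CPM (4308 to 4386) in 791 cells, a log2 ratio of -0.69. Each chain took part, with log2 ratios of -0.68, -0.72 and -0.68 for C1qa, C1qb and C1qc in state 5 and -0.76, -0.66 and -0.66 in state 7. Among all genes with at least 5 CPM, 2.5% were 1.5-fold lower in Fcmr-/- in state 5 and 3.12% in state 7. In the other 9 states the log2 ratio of the sum ran from -0.14 in state 11 to 0.08 in state 1.

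Other programs moved with C1q in these states. In state 5 the Fcmr-/- cells had more hypoxia and glycolysis RNA (7044 against 4713 CPM, log2 ratio 0.58) and more monocyte-list RNA (6684 against 4896 CPM, 0.45). In state 7 these log2 ratios were 0.36 and 0.57. Other lists differed as well. In state 5 the log2 ratio was -0.55 for G2 and mitosis, -0.31 for MHC class II, 0.41 for lipid-associated and 0.39 for inflammatory genes. In state 7 the same lists stood at -0.42, -0.15, 0.24 and 0.12. The Fcmr-/- cells of both states were also shallower, at a median of 11734 against 17138 UMIs in state 5 and 12714 against 19481 in state 7. The part of these differences in the result was not tested. After thinning, the log2 ratio of the summed chains was -0.80 in state 5 and -0.81 in state 7. How the states are drawn matters for the call. With 20 principal components no state with at least 100 cells of each library was 1.5-fold lower, the lowest standing at -0.55. At a resolution of 0.4, at 1.2 and with complement genes kept among the variable genes, 1, 2 and 1 such states were 1.5-fold lower. The highest log2 ratio of the sum was 0.08 in the states used here. It was 0.49 at a resolution of 0.4, 0.20 at 1.2, 0.30 with 20 principal components and 0.12 with complement genes kept. The near equality of the other states thus also depends on how the states are drawn.

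C3 was higher in Fcmr-/- cells in 11 of 11 states, as 5.65% of the 8701 genes were. It was highest in state 10 of the Fcmr-/- library, at 100.2 CPM (interval 92.6 to 108) against 30.6 CPM (24.5 to 37.8) in Fcmr+/+ cells of that state, a log2 ratio of 1.68. There 32.9% of thinned Fcmr-/- cells held a C3 UMI and 14.1% of Fcmr+/+ cells. State 2 came next, with 63.3 CPM (60.2 to 66.5) in Fcmr-/- and 42.2 CPM (32.0 to 54.7) in its few Fcmr+/+ cells. At the low end, state 11 had 6.15 CPM (3.36 to 10.3) and 3.75 CPM (2.56 to 5.29), and state 3 7.65 CPM (5.74 to 9.98) and 4.75 CPM (4.004 to 5.596). The thinned share in state 11 was 2.86% and 0.787%, with 140 and 381 cells. The log2 ratio was largest in the mitotic state 6, at 1.87, where 17.7 CPM (15.9 to 19.7) stood against 4.14 CPM (3.34 to 5.06), and its median over states was 1.01. In Fcmr-/- cells the order of the states was unlike that of C1q, with state 10 highest for C3 and only states 4 and 5 below it for C1q. In Fcmr+/+ cells state 2 was highest for C3.

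Cfb followed the interferon and MHC class II states. In Fcmr-/- cells it reached 20.3 CPM (17.0 to 24.1) in state 10, 17.4 (15.8 to 19.1) in state 2, 15.9 (14.1 to 17.7) in state 9 and 10.6 (8.83 to 12.5) in state 1. All the other states of that library lay between 1.91 and 7.66 CPM. In Fcmr+/+ cells the highest were state 2, at 17.0 CPM (10.8 to 25.6) from 23 UMIs, and state 1, at 7.69 CPM (6.63 to 8.88). Between the libraries the log2 ratio was 0.03 in state 2, with wide bounds of -0.66 and 0.77. It was 1.52 in state 10 (6.40 against 20.3 CPM, bounds 0.69 and 2.39). State 6 also stood at 1.52 (1.72 against 6.78 CPM, bounds 0.99 and 2.03). The bounds of states 2 and 10 overlap. Cfb was higher in Fcmr-/- cells in 10 of 11 states, with intervals apart in only 4 of them. State 5 was the exception at -0.25, also with overlapping intervals. The share of all genes higher in 10 states was not taken, and state 11 rests on 9 and 6 UMIs.

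**Figure D3:**
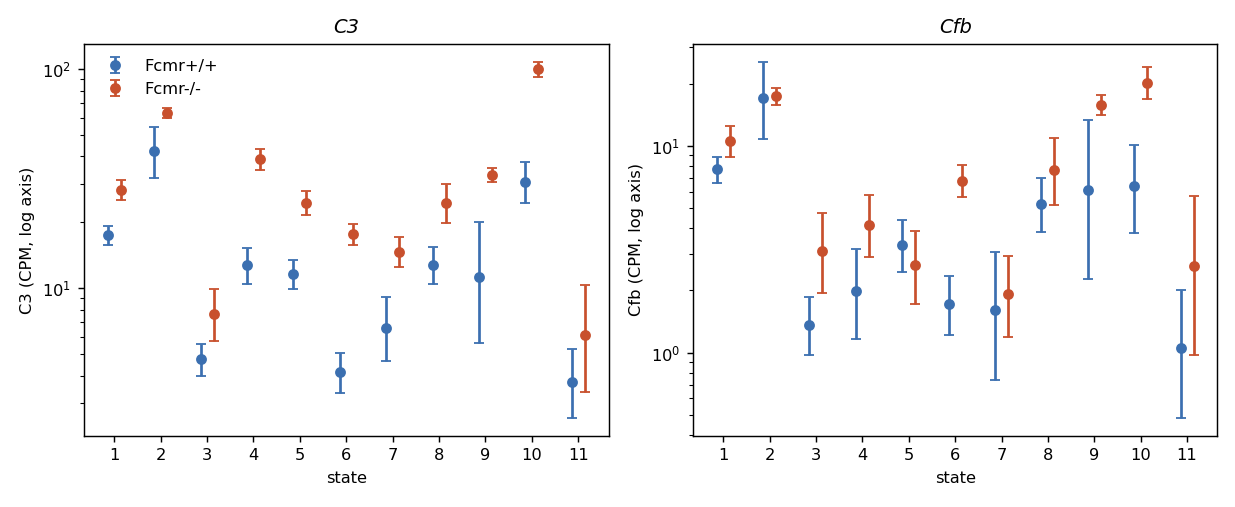
Levels of C3 (left) and Cfb (right) in CPM on log axes in the 11 states, for Fcmr+/+ (blue) and Fcmr-/- (orange) cells, with exact Poisson 95% intervals. C3 is higher in Fcmr-/- in all 11 states and peaks in state 10 at 100.2 CPM. The Cfb intervals of the libraries are apart in states 3, 6, 9 and 10, where the Fcmr+/+ value of state 9 rests on 6 UMIs. They overlap in state 2, where the Fcmr+/+ value rests on 23 UMIs.

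The receptors and properdin varied less between states. C3ar1 was higher in Fcmr-/- cells in 11 of 11 states, as 5.65% of the 8701 genes were, with intervals apart in 10. Its log2 ratios ran from 0.08 in state 9 to 0.58 in state 8. In state 9, with 41 Fcmr+/+ cells, the bounds were -0.09 and 0.25. Thinned means there were 2.366 in Fcmr+/+ and 2.362 in Fcmr-/-. The highest level of C3ar1 was in state 10 in both libraries, at 510.01 CPM (484 to 537) and 741 CPM (721 to 763). C5ar1 was highest in state 5 in both, at 592 CPM (579.9 to 605) and 541 CPM (527 to 556), and lowest in state 4, at 276 and 261 CPM. State 8 had C5ar1 at 348 CPM in Fcmr+/+ and 445 CPM in Fcmr-/-, and C3ar1 at 422 and 630.1 CPM. For Cfp, state 1 was highest, at 450.6 CPM (442 to 459) and 540.3 CPM (527 to 553), and state 11 lowest, at 264 and 246 CPM. Across states the span from lowest to highest was 1.40 and 1.81-fold for C3ar1, 2.14 and 2.08-fold for C5ar1 and 1.71 and 2.19-fold for Cfp, in Fcmr+/+ and Fcmr-/- respectively.

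From cell to cell the C1q chains moved together, and r was low for all other pairs of members. Over thinned cells the 3 pairs of C1q chains had Pearson r from 0.81 to 0.83 in the 6352 Fcmr+/+ cells and from 0.83 to 0.86 in the 7999 Fcmr-/- cells. The other 25 of the 28 pairs lay between -0.08 and 0.14 in Fcmr+/+ and between -0.09 and 0.14 in Fcmr-/-. These are descriptions over cells of 1 library, and sparse counts such as those of C3 and Cfb hold r near 0. Low counts also limit r for Cfp, C3ar1 and C5ar1, with means of 1.81 to 2.64 UMIs per thinned cell. The C1q chains had means of 8.04 to 15.2. Low r outside C1q thus does not show that the other members vary independently. Within states of at least 200 cells, r between C1qb and C1qc was 0.60 to 0.83 over 9 Fcmr+/+ states and 0.54 to 0.87 over 10 Fcmr-/- states, so the chains varied together inside states as well. The mix of the chains was close between the libraries, with C1qa giving 30.4% and 32.0% of C1q UMIs in the libraries, C1qb 43.4% and 42.1%, and C1qc 26.2% and 25.9%. These shares count 3′ ends and are not protein amounts. Over the states of both libraries C1qa ran from 26.8% to 33.7%, C1qb from 39.4% to 49.5% and C1qc from 23.7% to 28.8%.

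C3 and Cfb had a UMI in the same thinned cell in 12 Fcmr+/+ cells (0.189%) and 98 Fcmr-/- cells (1.23%), where the product of the separate shares was 0.110% and 0.708%. These values pool states that differ in both genes. Among the larger transcripts the receptor pair C3ar1 and C5ar1 had the highest r outside C1q in Fcmr+/+ cells, at 0.14, and 0.13 in Fcmr-/-. C3 went slightly against the C1q chains in both libraries, with r of -0.08 to -0.06 in Fcmr+/+ and -0.09 to -0.08 in Fcmr-/-, which is weak. In Fcmr-/- cells, r of Cfp with the C1q chains was 0.12 to 0.14, and in Fcmr+/+ cells 0.03 to 0.05.

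**Figure D4:**
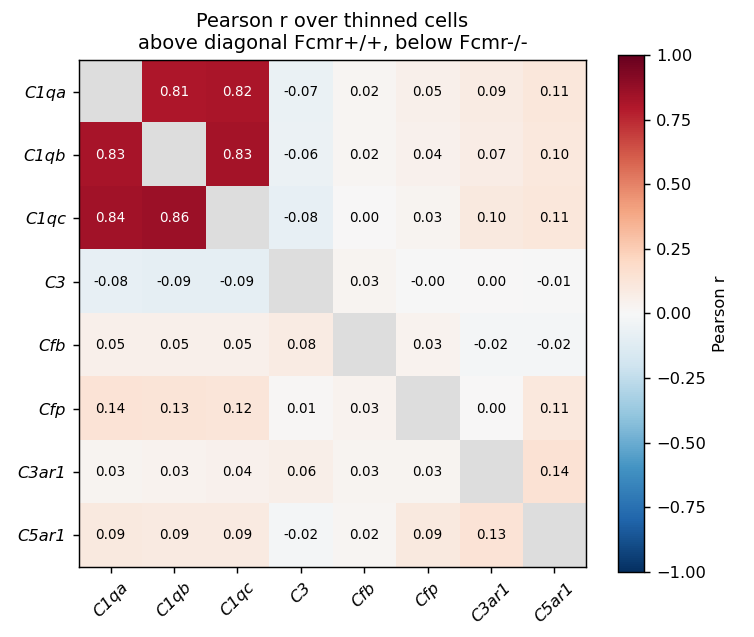
Pearson r over thinned cells for each pair of the 8 members, with Fcmr+/+ cells above the diagonal and Fcmr-/- cells below it and color from -1 (blue) to 1 (red). The block of C1qa, C1qb and C1qc stands at 0.81 to 0.86 and all other pairs at 0.14 or less.

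Among 2565 other genes with at least 50 CPM in both libraries, those most like the summed C1q chains over thinned cells were Sepp1 (r 0.45 in Fcmr+/+ and 0.46 in Fcmr-/-, first in both), Timp2 (0.41 and 0.35), Mrc1 (0.37 and 0.37), Itm2b (0.33 and 0.39) and Grn (0.37 and 0.34). Mrc1 encodes the mannose receptor CD206, and Sepp1 selenoprotein P. For C3 they were B2m (0.12 and 0.24), H2-Q7 (0.12 and 0.20), Ms4a4c (0.13 and 0.18), H2-K1 (0.11 and 0.19) and Ly6e (0.13 and 0.16), of which B2m, H2-Q7 and H2-K1 encode parts of MHC class I molecules. For Cfb the first 4 were MHC class II genes, H2-Ab1 (0.12 and 0.13), Cd74 (0.12 and 0.13), H2-Aa (0.12 and 0.12) and H2-Eb1 (0.12 and 0.12), followed by Ly6e (0.11 and 0.12). C5ar1 was most like Ccl7 (0.22 and 0.24), Ccl2 (0.22 and 0.23), Dab2 (0.23 and 0.21), Lyz2 (0.19 and 0.17) and Maf (0.20 and 0.17), the first 2 of which encode monocyte chemoattractants. C3ar1 was most like Ctsb (0.16 and 0.24), Lgmn (0.16 and 0.22), Ms4a7 (0.16 and 0.21), Grn (0.15 and 0.16) and Apoe (0.14 and 0.16), with lysosomal proteases in Ctsb and Lgmn. Cfp was most like Ifitm2 (0.18 and 0.19), Ctsc (0.17 and 0.17), Mrc1 (0.14 and 0.18), Lyz2 (0.13 and 0.16) and Ccl6 (0.17 and 0.11). Apart from the C1q values these are low.

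Cells were also ordered within each library by the summed UMIs of gene lists and cut into 5 bins of equal size. Cells with equal sums were ordered at random, and the bins of the libraries need not cover the same list levels. These means are descriptions with no test. C1q was lower in cells with more hypoxia and glycolysis RNA, with a mean of 45.1 UMIs per 5000 in the lowest bin and 19.6 in the highest in Fcmr+/+, and 48.9 and 15.9 in Fcmr-/-. Along the monocyte list the end bins were at 47.3 and 20.1 in Fcmr+/+ and at 51.0 and 16.5 in Fcmr-/-. C1q was higher toward the top of the list of Mrc1, Cd163 and Folr2, at 20.6 and 41.1 in Fcmr+/+ and 18.1 and 39.2 in Fcmr-/-. Along inflammatory genes it was lower toward the top, at 38.5 and 25.6 in Fcmr+/+ and 41.0 and 17.1 in Fcmr-/-. Along G2 and mitosis genes it was higher, at 31.7 and 42.6 in Fcmr+/+ and 26.6 and 44.0 in Fcmr-/-, and S phase genes gave 31.4 and 42.1 and 26.5 and 41.7. Along the immediate-early and heat-shock list, which can mark handling of the tissue, the ends were close, at 35.9 and 32.4 in Fcmr+/+ and 31.0 and 31.5 in Fcmr-/-.

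Along 3 lists the libraries differed in their course. From the lowest to the highest bin of MHC class II genes, C1q went from 39.1 down to 27.6 in Fcmr+/+ cells and from 25.5 up to 35.3 in Fcmr-/- cells. For lipid-associated genes it went from 29.3 up to 38.1 in Fcmr+/+ and from 33.5 down to 22.6 in Fcmr-/- cells. For type II interferon genes the end bins were close in Fcmr+/+, at 32.9 and 34.5, and apart in Fcmr-/-, at 25.6 and 42.02. The range of this list was unlike in the libraries. Its mean was 0 UMIs in the lowest bin of both, and in the highest 3.93 in Fcmr+/+ and 13.5 in Fcmr-/- cells. The part of this range in the unlike courses was not tested. Without states 2 and 9 the Fcmr-/- ends were 25.1 and 28.6 for MHC class II, 29.9 and 19.0 for lipid-associated and 24.7 and 30.2 for type II interferon genes. With 1 library per genotype these differences were not tested.

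C3 was higher toward the top of several lists in both libraries, among them the interferon, MHC class II, monocyte, inflammatory and immediate-early lists. Between the end bins of MHC class II genes, C3 went from 0.0236 to 0.123 UMIs per 5000 in Fcmr+/+ and from 0.117 to 0.333 in Fcmr-/- cells. Cfb went from 0.0102 to 0.0583 in Fcmr+/+ and from 0.0163 to 0.0969 in Fcmr-/- cells. For type I interferon genes, C3 went from 0.0464 to 0.0882 in Fcmr+/+ and from 0.107 to 0.412 in Fcmr-/-, and Cfb from 0.00787 to 0.0386 and from 0.0156 to 0.0894. Type II interferon genes gave 0.0496 and 0.103 for C3 in Fcmr+/+ and 0.128 and 0.403 in Fcmr-/-. For Cfb they gave 0.0228 and 0.0346 in Fcmr+/+, with lower values in the bins between, and 0.0219 and 0.101 in Fcmr-/-. Along the monocyte list C3 went from 0.0228 to 0.114 in Fcmr+/+ and from 0.142 to 0.281 in Fcmr-/-. Cfb went from 0.00865 to 0.0370 in Fcmr+/+ and from 0.0469 to 0.0425 in Fcmr-/-. Without states 2 and 9, Cfb along this list went from 0.00721 to 0.0377 in Fcmr+/+ and from 0.0235 to 0.0361 in Fcmr-/-. Its unlike direction in the libraries was thus not kept without these states. Along the immediate-early and heat-shock list C3 went from 0.0354 to 0.0835 and from 0.164 to 0.276, and its part in the level of C3 was not tested. Opposite to C1q, C3 was lower toward the top of the list of Mrc1, Cd163 and Folr2, at 0.130 and 0.0409 in Fcmr+/+ and 0.405 and 0.140 in Fcmr-/-.

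The receptors and properdin were less than 2-fold apart between the end bins of each of the 11 lists. C5ar1 was higher toward the top of the list of Mrc1, Cd163 and Folr2, with end bins at 1.59 and 2.57 UMIs per 5000 in Fcmr+/+ and 1.76 and 2.43 in Fcmr-/- cells. C3ar1 was higher toward the top of lipid-associated genes, at 1.76 and 2.37 in Fcmr+/+ and 2.09 and 2.92 in Fcmr-/- cells. Cfp shared the direction of C5ar1 along the first list, at 1.64 and 2.16 in Fcmr+/+ and 1.41 and 2.37 in Fcmr-/- cells. Along MHC class II genes Cfp was at 1.64 and 2.19 in Fcmr+/+ and 1.65 and 2.08 in Fcmr-/- cells, and along type I interferon genes C3ar1 was at 1.97 and 2.27 and at 2.399 and 3.097.

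**Figure D5:**
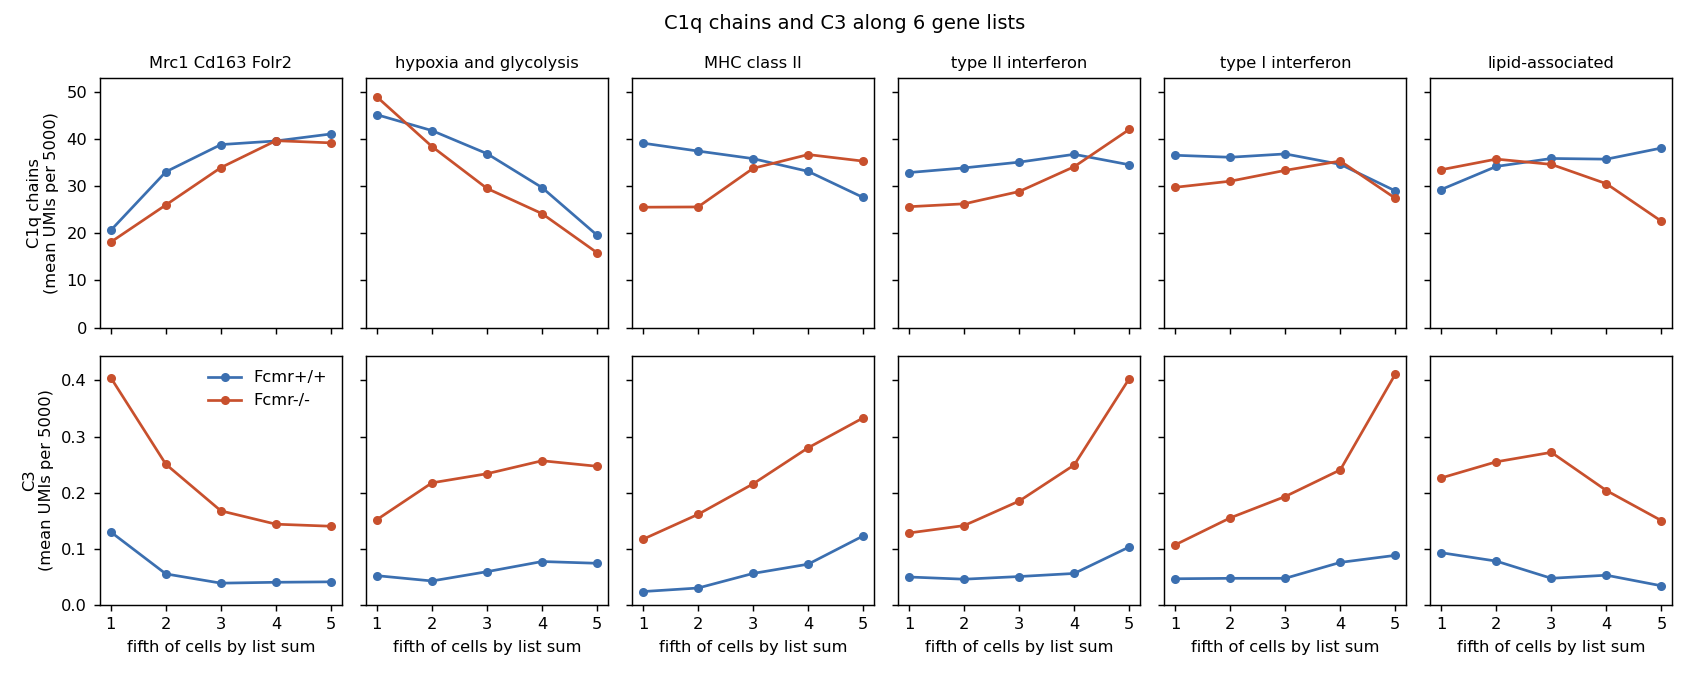
Mean UMIs per 5000 of the summed C1q chains (top row) and of C3 (bottom row) in 5 equal bins of the cells of each library ordered by the summed UMIs of 6 gene lists, for Fcmr+/+ (blue) and Fcmr-/- (orange). C1q is lower toward the top of hypoxia and glycolysis genes in both libraries, from 45.1 to 19.6 and from 48.9 to 15.9, and runs in opposite directions in the libraries along MHC class II and lipid-associated genes, while the C3 of Fcmr-/- cells lies above that of Fcmr+/+ cells in every bin shown.

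Depth per cell went with C1q and C3 inside each library and little with Cfp, which was at 368 CPM in the shallowest and 343 in the deepest bin of Fcmr+/+ cells and at 368 and 359.8 in Fcmr-/- cells. With cells of both libraries cut into 4 bins by the same UMI limits, from the shallowest to the deepest the summed C1q chains went from 4551 to 7932 CPM in Fcmr+/+ and from 4111 to 8224 CPM in Fcmr-/- cells, and C3 went the other way, from 23.7 to 7.48 CPM and from 66.3 to 24.1 CPM. Within these bins the log2 ratio of C3 was 1.24 to 1.77 and that of Cfb 0.72 to 1.504. For the summed C1q chains it was -0.15 in the shallowest bin and 0.05 in the deepest. C3ar1 and Cfb were also lower in deeper cells. From the shallowest to the deepest bin C3ar1 went from 435 to 406 CPM in Fcmr+/+ and from 599 to 451 CPM in Fcmr-/- cells. Its log2 ratio was 0.46 in the shallowest bin and 0.15 in the deepest. Cfb went from 6.86 to 2.71 CPM in Fcmr+/+ and from 12.0 to 9.53 CPM in Fcmr-/- cells.

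Of 47 other complement genes in 4 lists, 15 reached 5 CPM in either library, 31 did not and 1 was not listed. In the list of classical and lectin pathway genes 4 of 16 were measured, and these 4 were at least 1.5-fold apart, 2 in each direction, where 4.09% of all genes were. C1ra and Colec12 passed the 5 CPM limit only through the library in which they were high, which favors a difference for these 2. C4b, which is cleaved after C1q binds, was higher in Fcmr-/- at 20.3 CPM (19.5 to 21.1) against 11.6 (11.05 to 12.2), and so was C1ra, a C1r protease, at 6.87 (6.42 to 7.34) against 3.89 (3.56 to 4.25). Fcna, which encodes ficolin A, was lower, at 14.7 (14.1 to 15.4) against 25.5 (24.6 to 26.3), and so was Colec12, a collectin, at 4.31 (3.95 to 4.69) against 8.07 (7.58 to 8.57). None of the 8 genes of the alternative and terminal pathway list reached 5 CPM, and that list includes Cfd and Hc, which encode factor D and C5.

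Of 11 inhibitor genes, 2 reached 5 CPM and neither was 1.5-fold apart. Cr1l (Crry), a membrane inhibitor of mouse cells, stood at 50.3 CPM in Fcmr+/+ and 49.2 in Fcmr-/-. Of 12 receptors and C1q binders 9 reached 5 CPM, none was 1.5-fold apart and 5 were above a ratio of 1. Lair1, an inhibitory receptor that binds collagen-like tails such as that of C1q, came closest at 104 against 155 CPM, a log2 ratio of 0.58. The chains of complement receptor 3, Itgam and Itgb2, had log2 ratios of 0.31 (249 against 309.7 CPM) and 0.39 (203 against 268 CPM), and Itgax, which pairs with Itgb2 in complement receptor 4, -0.14 (30.3 against 27.4 CPM). Calr stood at 959 and 1178 CPM, Lrp1 at 381 and 409, Cd93 at 408 and 384 and C1qbp at 121 and 115. Thus the median log2 ratio over the 15 measured genes was -0.03, beside 0.0023 over all genes tested.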

How the data were processed

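The study's methods give droplet 3′ single-cell RNA libraries of MerTk+ CD64+ TMPs, with reads mapped to GRCm38 by Cell Ranger. The matrices the authors deposited, 1 per library, hold unnormalized UMI counts. Seurat 2.1.0 is named in the submitters' processing notes for their later steps.

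The study's stated filters were applied here: a gene had to be seen in 3 cells or more, and a cell had to hold 200 to 7000 genes with no more than 30% mitochondrial UMIs. They left 14351 of 14409 cells and 16112 genes, the numbers the study gives after its own filter. No doublet caller was run, and the upper limit on genes and an alternative without the 5% of cells with most UMIs stand in for it. CPM is the summed UMIs of a gene over those of all genes times 1000000. The 1.5-fold limit applies to CPM with 1 added. UMI sums have exact Poisson and cell shares Clopper-Pearson intervals at 95%, which describe counting error alone. Bounds of a log2 ratio join the opposite ends of both Poisson intervals. Thinning drew 5000 UMIs per cell without replacement, and Pearson r used log-normalized thinned UMIs.

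States came from Seurat 5.3.0 in R 4.3.3 (log-normalization to 10000, log mean 0.0125 to 3, dispersion over 0.5, 10 principal components, 30 neighbors, resolution 0.8). Of 1339 variable genes, 10 complement genes were left out, 3 of them members. Other steps used Python 3.11.15, numpy 2.4.6 and scipy 1.17.1, and the code was tested on simulated data. Leading genes of a state were those with at least 50 CPM in it and the highest fold over all other cells. Gene positions are those of GENCODE on GRCm38.

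Named are the 8 members, pathway genes at least 1.5-fold apart or at 20 CPM or more, and for each member the 5 genes with the highest mean r. An inhibitor gene that this rule names is not reported here. The members and gene lists were chosen with earlier results of these data known. Alternatives covered thinning, scaling, filters on cells, the mix of states, the pseudocount, the fold, and the clustering.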

Additional observations from a re-analysis of the deposited data

Results flagged for a closer look

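C1q followed opposite courses in the libraries along 2 gene lists, and neither difference was tested. A course was picked out where the end bins of 5 were at least 1.25-fold apart in opposite directions, a limit set after the values were seen. Along MHC class II genes the highest bin held 0.705 times the C1q UMIs of the lowest in Fcmr+/+ cells and 1.38 times in Fcmr-/- cells. Without states 2 and 9, which were mostly Fcmr-/- cells, these were 0.705 and 1.14, so that the course along MHC class II genes was no longer past the limit. Along lipid-associated genes they were 1.30 in Fcmr+/+ and 0.674 in Fcmr-/- cells, and 1.31 and 0.636 without states 2 and 9.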

How the results depend on the processing

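C3 was past 1.5-fold higher in Fcmr-/- under all 13 alternatives, with log2 ratios of 1.04 to 1.83, and Cfb under 12 of 13, with 0.58 to 1.54. With both libraries weighted to the same mix of states the number of members past the fold was 1 in place of 2, and at 2-fold it was 2. For the summed C1q chains the log2 ratio of -0.06 became -0.14 with thinned cells and as a mean over cells, -0.081 with at most 5000 genes, -0.091 without the 5% of cells with most UMIs, -0.17 without cells with T, NK, B or melanoma UMIs, and -0.10 with the same mix of states. Chosen after seeing the data, it was -0.27 without states 2 and 9 and 0.0035 with equal weight to 4 bins of depth, and without shared barcodes it was -0.07. The small ratios of C1qa, C1qc and C5ar1 kept their sign under 6, 12 and 11 of 13 alternatives, and C1qb, Cfp and C3ar1 under 13. The share of all genes 1.5-fold apart was 4.09% at 5 CPM, 4.43% at 50 CPM and 2.87% with no filter. The median r among C1q chains was 0.82 and 0.84 (Fcmr+/+ and Fcmr-/-), 0.89 and 0.89 without thinning, 0.69 and 0.73 at 2000 UMIs, and 0.78 and 0.85 by Spearman. The fold of C1q between the highest and lowest states was 2.26 and 3.21 at a resolution of 0.4, 4.14 and 5.75 at 1.2, 3.37 and 3.73 with 20 principal components, and 3.78 and 5.45 with complement genes kept. No paired analysis was possible because each genotype has 1 library and no value comes from a test. Depth limits Cfb most, with 6 to 432 UMIs per state and library.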
